A study of Mus musculus with 14 samples.

Results

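Stab1 and 9 other genes of tumour macrophages were followed across 14 mouse thymic lymphomas: Cd163, Mrc1, Csf1r, Cd14, Mpeg1, C1qa, C1qb, Msr1 and Ctsb. Every probe set that names one of these 10 genes and no other was taken, 19 of the 18264 probe sets on the array, and the 10 genes stand among 10254 genes measured. The genes were chosen by measured values: the levels of Stab1 and of macrophage genes in HIF1a+/- against HIF1a+/+ tumours in earlier results of these data. The members' differences between HIF1a+/- and HIF1a+/+ tumours are therefore given below as a description. The counts of calls and of groups without overlap printed beside them follow from that choice, and nothing is read from them. The question tested is whether Stab1 follows the other macrophage genes from tumour to tumour.

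There were 5 tumours from HIF1a+/-, 4 from HIF1aKI/+ and 5 from HIF1a+/+ mice. All of these mice, HIF1a+/+ included, carried the R270H change on both alleles of p53 (p53R270H/R270H) on a mixed C57BL/6-129/SvEvTac background. As the symbols read, HIF1a+/- mice had a single intact Hif1a allele. HIF1aKI/+ mice had a knock-in allele whose content the labels do not give. Mice were kept until breathing became laboured, and RNA of the whole tumour tissue was hybridised to 1 array per tumour. The labels call the tumours of a genotype biological replicates. No treatment, age, sex or batch is named in the labels. Values are log2 probe set levels, on which 1 unit is a doubling, and a gene with several probe sets is represented by the one of highest mean unless stated.

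Macrophages enter tumours as monocytes or derive from resident tissue cells, and they depend on signals through the CSF1 receptor. They clear dying cells, modified lipoproteins and haemoglobin through scavenger receptors, break the cargo down in lysosomes with enzymes such as cathepsin B, and are a main source of complement C1q. Stabilin-1, the product of Stab1, is a large scavenger receptor that takes up modified lipoproteins and the matrix protein SPARC. It is made by a subset of tissue macrophages and also by sinusoidal and lymphatic endothelium, so that in whole tissue its signal can come from either. In bulk tissue, fewer cells of a type and less RNA per cell cannot be told apart.

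Probe set means fell into a low and a high mode, divided at 4.63, here called the background boundary. All 10 genes were measured, and Cd163 alone had a mean below it. Array medians ran from 7.91 to 8.03. Hif1a itself averaged 12.55 in HIF1a+/-, 12.02 in HIF1aKI/+ and 12.68 in HIF1a+/+ tumours. It differed from HIF1a+/+ by -0.13 (SE 0.15) in HIF1a+/- and by -0.66 (SE 0.16) in HIF1aKI/+ tumours. Neither difference passed (limma adjusted p = 0.857 for HIF1a+/- and 0.984 for HIF1aKI/+). All HIF1aKI/+ tumours nevertheless had less Hif1a than every HIF1a+/+ tumour, where 0.878% of all genes were lower without overlap. T cell genes listed as markers of the lymphoma cells were all above the boundary (15 of 15 measured), led by Thy1, Cd3d, Cd8a and Rag1. Of 26 measured macrophage and monocyte markers other than the 10 genes, 18 had a mean above it. Lyz2 (lysozyme) averaged 13.10, Lgals3 (galectin-3) 12.37, Tyrobp (an adaptor of activating receptors) 12.12 and Fcer1g (the Fc receptor gamma chain) 12.11. Itgam, Cx3cr1, Spi1, Cd86, Siglec1, Vsig4, Lyve1 and Marco lay below it.

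RefSeq promoters (GRCm38.p6, 250 bases before to 50 after a start site) were given for 5 of the 10 genes, Stab1, Cd163, Mrc1, Mpeg1 and C1qb. A promoter of C1qa, Csf1r, Cd14, Msr1 or Ctsb was not used here. They are shown because the genes are compared for moving together. The letters searched on both strands were GAGGAA, a core bound by the macrophage factor PU.1, and ACGTG, the core of the hypoxia response element bound by HIF. Capitals mark these letters or their reverse complement.
Stab1, chr14:31168592-31168891, minus strand: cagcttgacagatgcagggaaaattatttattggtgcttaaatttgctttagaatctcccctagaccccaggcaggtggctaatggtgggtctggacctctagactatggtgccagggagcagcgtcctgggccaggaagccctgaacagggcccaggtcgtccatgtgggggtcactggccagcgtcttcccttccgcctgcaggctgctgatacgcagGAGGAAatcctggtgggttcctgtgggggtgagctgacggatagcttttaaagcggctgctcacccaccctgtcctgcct
C1qb, chr4:136886151-136886450, minus strand: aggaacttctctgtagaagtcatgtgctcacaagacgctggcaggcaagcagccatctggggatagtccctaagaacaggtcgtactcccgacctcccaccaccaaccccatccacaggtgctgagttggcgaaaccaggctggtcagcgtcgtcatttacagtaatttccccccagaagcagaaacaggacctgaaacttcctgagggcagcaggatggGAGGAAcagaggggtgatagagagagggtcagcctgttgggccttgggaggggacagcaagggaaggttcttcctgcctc
Mrc1, chr2:14229164-14229463, plus strand: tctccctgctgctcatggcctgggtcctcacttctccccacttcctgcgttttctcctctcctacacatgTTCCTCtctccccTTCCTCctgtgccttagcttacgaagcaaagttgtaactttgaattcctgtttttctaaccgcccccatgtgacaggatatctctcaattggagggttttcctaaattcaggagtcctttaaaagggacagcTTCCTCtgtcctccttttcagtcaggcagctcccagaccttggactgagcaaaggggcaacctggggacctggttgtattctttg
Cd163, chr6:124304401-124304700, plus strand: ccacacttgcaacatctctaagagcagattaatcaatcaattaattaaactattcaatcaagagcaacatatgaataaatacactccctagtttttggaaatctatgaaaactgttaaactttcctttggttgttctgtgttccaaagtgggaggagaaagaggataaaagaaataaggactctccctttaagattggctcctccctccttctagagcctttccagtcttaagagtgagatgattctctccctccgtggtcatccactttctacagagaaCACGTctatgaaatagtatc

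GAGGAA began 30 bases before the start in Stab1 and also 30 bases before it in C1qb. Mrc1 held it 3 times, at 180, 167 and 35 bases before the start, all on the opposite strand. Cd163 had no GAGGAA and 1 ACGTG, on the opposite strand 30 bases after the start, and the Mpeg1 promoter had neither. Among 32851 promoters of the same length, 28.3% held GAGGAA and 19.6% held ACGTG. Stab1 had no ACGTG in this window. A match of letters is a description of the sequence and does not show that a factor binds there.

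Among the receptors that clear cargo, Stab1 divided the tumours by genotype. Its levels were 7.61, 7.53, 7.62, 7.82 and 8.09 in HIF1a+/- tumours, 7.61, 8.0, 7.80 and 8.24 in HIF1aKI/+ tumours and 9.22, 8.60, 8.70, 9.24 and 9.30 in HIF1a+/+ tumours. The 9 tumours with an altered Hif1a allele lay below all 5 HIF1a+/+ tumours, with a gap of 0.36 between the highest of the first and the lowest of the second. This split contains the comparison that chose the genes, and the share of all genes that split so was not computed. HIF1a+/- and HIF1aKI/+ tumours overlapped along most of their range. Stab1 averaged 7.73 ± 0.23 in HIF1a+/- (SD, n = 5), 7.91 ± 0.27 in HIF1aKI/+ (SD, n = 4) and 9.01 ± 0.33 in HIF1a+/+ tumours (SD, n = 5). All of these values come from 1 probe set.

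Cd163, the receptor for haemoglobin bound to haptoglobin, was either at background or well above it. It read 2.16, 2.13, 2.14, 2.16 and 2.20 in HIF1a+/- tumours, 2.05, 2.15, 2.25 and 2.18 in HIF1aKI/+ tumours and 2.15, 8.76, 5.36, 7.27 and 2.22 in HIF1a+/+ tumours. It was above background in HIF1a+/+ tumours 2, 3 and 4 and at background in the other 11 tumours. The difference of -2.99 from HIF1a+/+ in both HIF1a+/- (SE 1.09) and HIF1aKI/+ tumours (SE 1.16) thus rests on 3 arrays. HIF1a+/+ tumours 1 and 5, where Cd163 was at background, had Stab1 levels of 9.22 and 9.30, among the 3 highest.

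Mrc1, the mannose receptor, was lower on average in tumours with an altered Hif1a allele, and its groups overlapped. Its levels were 8.76, 6.96, 9.81, 8.49 and 8.70 in HIF1a+/- tumours, 9.42, 9.59, 7.48 and 9.56 in HIF1aKI/+ tumours and 8.01, 11.18, 9.96, 10.73 and 10.59 in HIF1a+/+ tumours. Of the HIF1a+/+ tumours 4 exceeded all 9 others, and tumour 1 fell below 7 of them. Msr1, class A scavenger receptor 1, ranged from 5.97 to 7.35 in HIF1a+/-, from 5.80 to 7.01 in HIF1aKI/+ and from 5.37 to 10.62 in HIF1a+/+ tumours. HIF1a+/+ tumours held both the highest Msr1 level (tumour 5) and the lowest (tumour 4), and those 2 tumours had nearly equal Stab1.

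**Figure D1:**
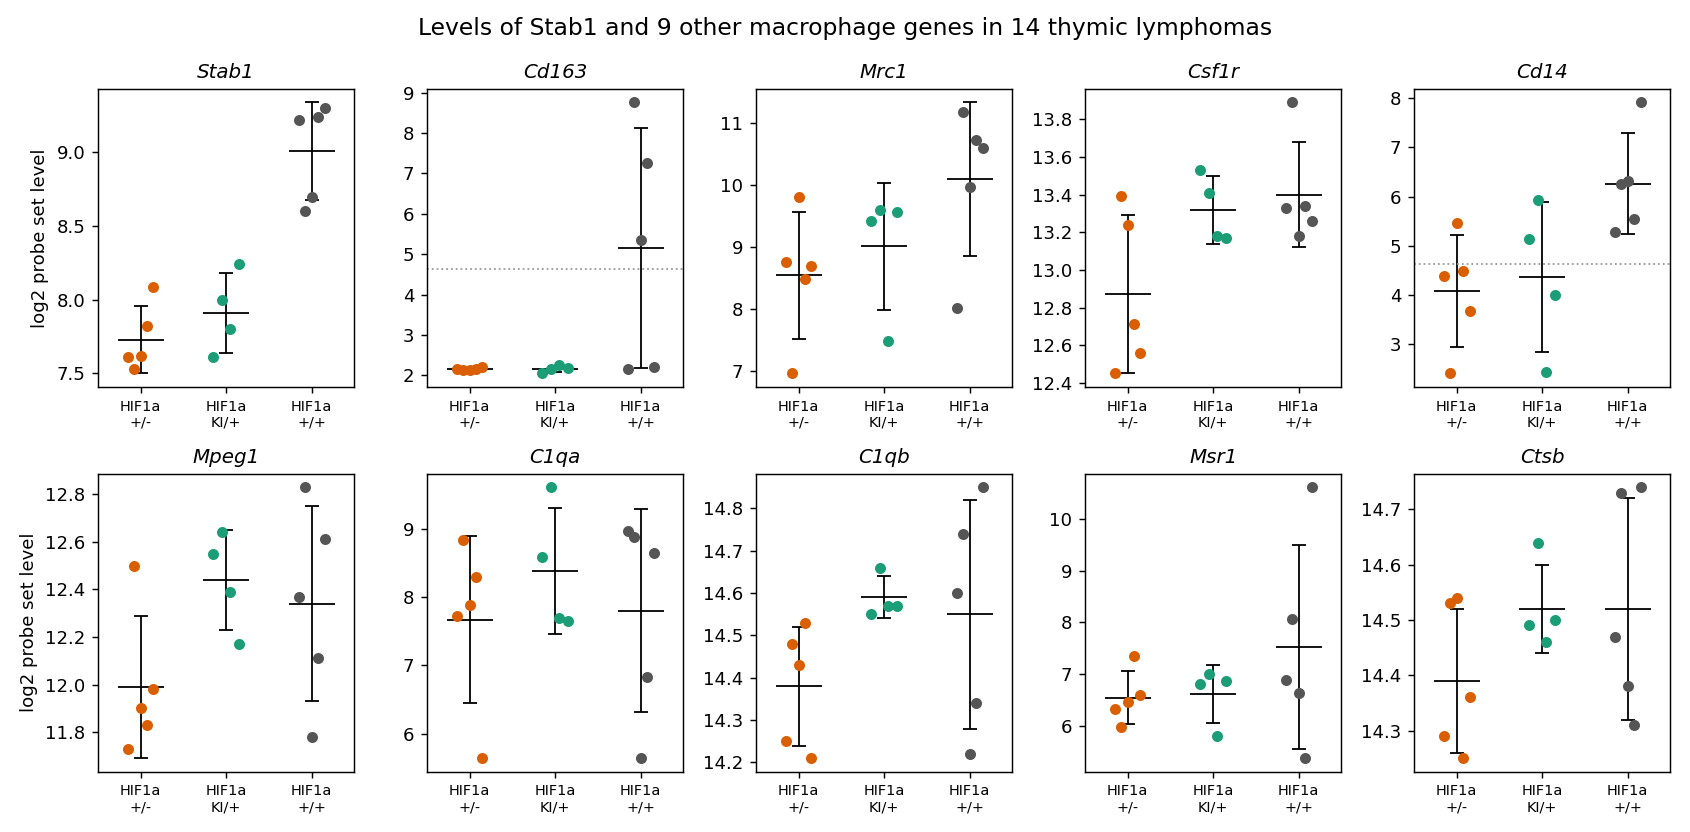
Log2 levels of the 10 genes (vertical axes, scaled per gene) in HIF1a+/-, HIF1aKI/+ and HIF1a+/+ tumours. Points are tumours, the wide bar is the mean, the error bar the SD between tumours, and the dotted line the background boundary at 4.63. Stab1 is the 1 gene of the 10 in which all HIF1a+/+ tumours lie above all others. The share of all genes that do so was not computed, and the split contains the comparison that chose the genes.

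Of the signalling receptors, Csf1r, the receptor for CSF1 and IL-34, was abundant in every tumour. It was at 12.45, 13.39, 13.24, 12.71 and 12.56 in HIF1a+/- tumours, 13.53, 13.41, 13.18 and 13.17 in HIF1aKI/+ tumours and 13.33, 13.89, 13.18, 13.34 and 13.26 in HIF1a+/+ tumours. HIF1aKI/+ tumours lay inside the HIF1a+/+ range or at its lower edge, and 3 of the HIF1a+/- tumours lay below it. Cd14, the lipopolysaccharide co-receptor of TLR4, was at 4.38, 2.41, 5.47, 4.48 and 3.68 in HIF1a+/- tumours, 5.14, 5.92, 2.43 and 4.00 in HIF1aKI/+ tumours and 5.27, 6.26, 6.31, 5.54 and 7.91 in HIF1a+/+ tumours. It was below the background boundary in 6 of the 14 tumours, 4 HIF1a+/- and 2 HIF1aKI/+, and above it in all 5 HIF1a+/+ tumours. The size of a Cd14 difference is uncertain for that reason.

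C1qa, C1qb, Mpeg1 and Ctsb, products of the phagocytic cell, its complement and its lysosome, overlapped between HIF1a+/+ and each other genotype. C1qa, a chain of C1q, was at 7.73, 8.83, 7.89, 8.29 and 5.64 in HIF1a+/- tumours, 8.59, 9.61, 7.69 and 7.65 in HIF1aKI/+ tumours and 8.97, 8.88, 5.65, 6.83 and 8.65 in HIF1a+/+ tumours. The lowest values fell in HIF1a+/- tumour 5 and HIF1a+/+ tumour 3, at nearly the same level. C1qb, a second chain, ran from 14.21 to 14.53 in HIF1a+/-, from 14.55 to 14.66 in HIF1aKI/+ and from 14.22 to 14.85 in HIF1a+/+ tumours. These levels are near the top of the array's range, and another C1qb probe set of mean 12.04 spread over 1.96 units across the 14 tumours against 0.65 at the first. Mpeg1, which encodes the pore-forming perforin-2 of phagocytes, ran from 11.73 to 12.50 in HIF1a+/-, from 12.17 to 12.64 in HIF1aKI/+ and from 11.78 to 12.83 in HIF1a+/+ tumours. Ctsb, the lysosomal protease cathepsin B, ran from 14.25 to 14.54 in HIF1a+/-, from 14.46 to 14.64 in HIF1aKI/+ and from 14.31 to 14.74 in HIF1a+/+ tumours. This Ctsb probe set is also near the top of the array's range. Another, of mean 9.35, differed from HIF1a+/+ by -0.65 (SE 0.24) in HIF1a+/- and -0.35 (SE 0.26) in HIF1aKI/+ tumours.

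Against HIF1a+/+, the 10 genes were all lower on average in HIF1a+/- tumours, where 53.8% of all genes were. Stab1 differed by -1.28 (SE 0.17), 2.42-fold lower, Mrc1 by -1.55 (SE 0.68), Cd14 by -2.17 (SE 0.75), Msr1 by -0.98 (SE 0.78) and Csf1r by -0.53 (SE 0.20). Mpeg1 differed by -0.35 (SE 0.20), C1qb by -0.17 (SE 0.12), Ctsb by -0.13 (SE 0.09) and C1qa by -0.12 (SE 0.77). The median of the 9 genes other than Stab1 was -0.53, beside 0.00 over all genes. The fit placed 0.0195% of all genes below an adjusted p of 0.05, the pair Stab1 and Dhx15, an RNA helicase gene, and so 1 of the 10 genes. Stab1 was just inside that threshold: it was called in 0 of the 14 fits without 1 tumour each, and in 2 of 10 fits under other settings, while its difference stayed between -1.38 and -1.20 without any single tumour. Stab1 was also the 1 gene of the 10 whose HIF1a+/- tumours all lay below the HIF1a+/+ tumours, where 0.741% of all genes did. These are values of the comparison that chose the genes, and they are no test of them.

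HIF1aKI/+ tumours, set against those same HIF1a+/+ arrays, also had a lower mean of Stab1, while the means of Csf1r and of the phagocyte products were close to those of HIF1a+/+ or above. Stab1 differed by -1.10 (SE 0.18), 2.14-fold lower, and limma called 0 of the 10 genes and 0% of all genes (adjusted p = 0.715 for Stab1). At an unadjusted p under 0.05, 2.72% of all genes were higher and 1.63% lower, and 3 of the 10 genes were among the lower ones, Stab1, Cd163 and Cd14. Stab1 did not overlap between the groups, nor did 0.878% of all genes that were lower. Mrc1 differed by -1.08 (SE 0.72), Cd14 by -1.88 (SE 0.79) and Msr1 by -0.90 (SE 0.82), while Csf1r (-0.08, SE 0.21), Mpeg1 (0.10, SE 0.21), C1qb (0.04, SE 0.12), Ctsb (0.00, SE 0.10) and C1qa (0.59, SE 0.81) were near 0 or above it. Their adjusted p values lay between 0.984 and 1. The median of the 9 was -0.08, with 6 of 9 below 0, where 52.3% of all genes were.

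Between HIF1a+/- and HIF1aKI/+ tumours limma called 0% of all genes. Stab1 differed by -0.18 (SE 0.18, adjusted p = 1). The others had larger differences relative to their error in Csf1r (-0.45, SE 0.21) and Mpeg1 (-0.45, SE 0.21), both with adjusted p = 1. At an unadjusted p under 0.05 were 1.41% of all genes higher and 1.65% lower, and 0 of the 10. The median of the 9 was -0.29 with 8 of 9 below 0, where 53.1% of all genes were. C1qb was the 1 gene of the 10 without overlap, by a margin smaller than the spread of either group, where 0.439% of all genes were lower without overlap. Both this comparison and the one of HIF1aKI/+ with HIF1a+/+ tumours share arrays with the comparison that chose the genes.

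**Figure D2:**
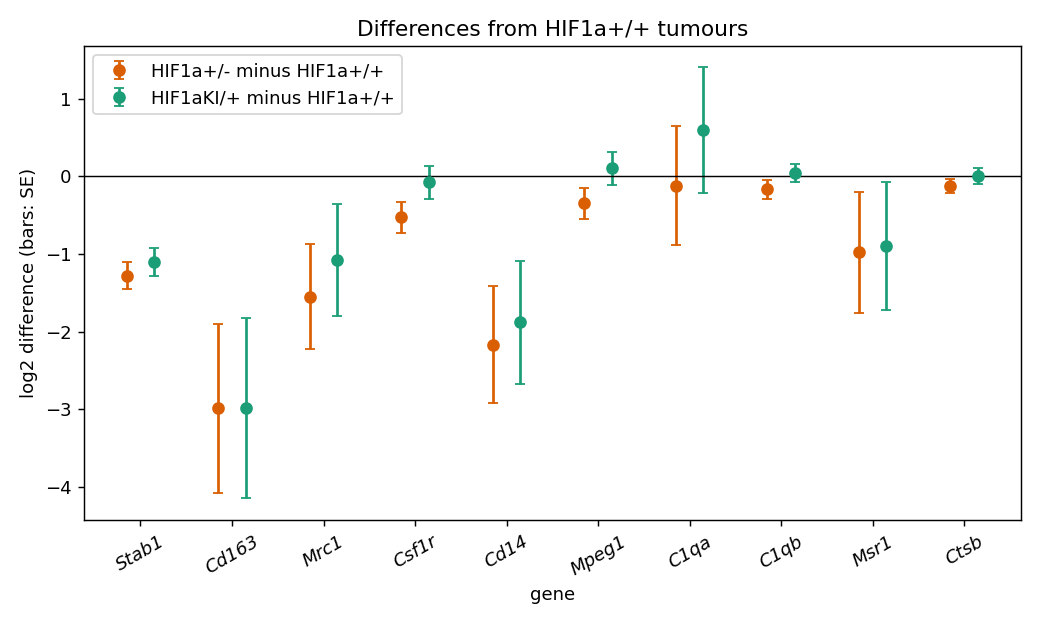
Log2 differences of the 10 genes in HIF1a+/- (left of each pair) and HIF1aKI/+ tumours (right) from the shared HIF1a+/+ tumours, with bars for the SE. Stab1 has the smallest errors among the genes that differ by about 1 or more, and Csf1r, Mpeg1, C1qb and Ctsb lie near 0 in HIF1aKI/+.

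Of the variance of Stab1 across the 14 tumours, 84.4% lay between genotypes. The share was 45.5% for Cd14, 45% for Cd163, 42.0% for Csf1r, 31.7% for Mrc1 and 30.7% for Mpeg1. It was 23.3% for C1qb, 17.6% for Ctsb, 14% for Msr1 and 6.7% for C1qa, and its median over all genes was 13.7%. These shares contain the difference that chose the genes, so they are a description and no test of them. The spread of Stab1 within a genotype, 0.28, was smaller than the median over all genes, 0.44. Choice of a gene by that comparison can itself favour a small spread, so this too is a description. Mrc1 (1.11), Cd14 (1.22), C1qa (1.25), Msr1 (1.27) and Cd163 (1.79) varied far more among tumours of 1 genotype.

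The test of whether Stab1 follows the other macrophage genes used levels centred on their genotype means, which removes the difference that chose the genes. Over the 14 tumours none of the 9 correlations with Stab1 passed (permutation within genotype, adjusted p = 0.533 for Pearson's r with Csf1r and 0.961 with the other 8; 0.979 for every Spearman's rho). Pearson's r was -0.52 with Csf1r (rho -0.38, permutation p = 0.0592 and 0.197) and -0.45 with Cd163 (rho -0.15, permutation p = 0.231 and 0.644). It was 0.18 with Msr1 (rho 0.14, permutation p = 0.697 and 0.669), -0.17 with Mpeg1 (rho -0.14, permutation p = 0.614 and 0.671) and -0.16 with Ctsb (rho -0.01, permutation p = 0.631 and 0.979). It was -0.15 with C1qa (rho -0.14, permutation p = 0.659 and 0.671), 0.04 with C1qb (rho -0.05, permutation p = 0.901 and 0.897) and 0.03 with Cd14 (rho -0.05, permutation p = 0.919 and 0.869). With Mrc1 it was -0.02 (rho 0.04, permutation p = 0.961 and 0.91). The value for Cd163 rests on the HIF1a+/+ tumours, as Cd163 was at background in all others. Approximate 95% intervals were wide, from -0.59 to 0.56 for Mrc1 and from -0.84 to 0.07 for Csf1r, so a moderate positive relation with most of these genes was not detectable with 14 tumours.

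The tumours farthest from the median of centred Stab1 were HIF1a+/- tumour 5 and HIF1a+/+ tumour 2. HIF1a+/- tumour 5 had the highest Stab1 of its genotype (8.09) and the lowest mean of the other 9 genes (8.88). HIF1a+/+ tumour 2 had the lowest Stab1 of its genotype (8.60) and the highest mean of the other 9 (11.04), with the highest Cd163, Mrc1, Csf1r and Mpeg1 of all 14 tumours. Without these 2 tumours Pearson's r with Stab1 was 0.53 for C1qb, 0.39 for C1qa, 0.33 for Msr1, 0.17 for Mrc1, 0.14 for Ctsb, 0.12 for Mpeg1 and 0.11 for Cd14. It was -0.21 for both Csf1r and Cd163. The lower values over all 14 tumours, and the sign for several genes, therefore rest on those 2 tumours.

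**Figure D3:**
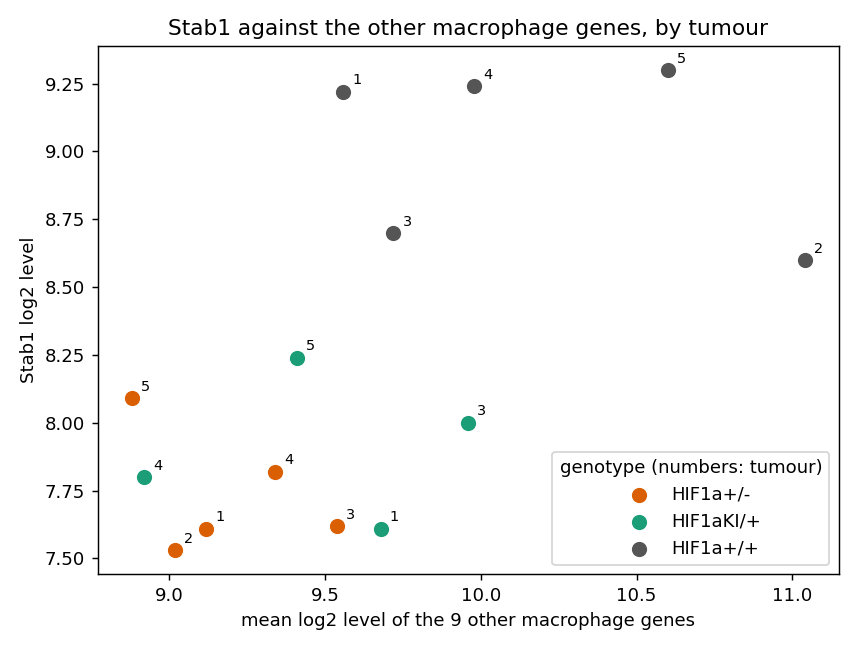
Stab1 log2 level (vertical) against the mean log2 level of the 9 other genes (horizontal), 1 point per tumour, numbered within its genotype. HIF1a+/+ tumours 1 and 3 have a mean of the 9 genes (9.56 and 9.72) inside the HIF1aKI/+ range of 8.92 to 9.96, and Stab1 levels of 9.22 and 8.70.

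The mean of the other 9 genes was 9.18 ± 0.26 in HIF1a+/- (SD, n = 5), 9.49 ± 0.44 in HIF1aKI/+ (SD, n = 4) and 10.18 ± 0.62 in HIF1a+/+ tumours (SD, n = 5). It ran from 8.88 to 9.54 in HIF1a+/-, from 8.92 to 9.96 in HIF1aKI/+ and from 9.56 to 11.04 in HIF1a+/+ tumours. Levels were not scaled for this mean, so genes of wide spread weigh most, such as Cd163, at background in 11 tumours. With each gene centred and scaled to its SD, the mean ran from -0.95 to -0.09 in HIF1a+/- and from -0.44 to 0.61 in HIF1aKI/+ tumours. In HIF1a+/+ tumours 1 to 5 it was 0.09, 1.45, -0.34, -0.07 and 1.21. With the unscaled mean as a covariate in the fit, the Stab1 difference was -1.41 (SE 0.25) in HIF1a+/- and -1.19 (SE 0.22) in HIF1aKI/+ tumours. Without it, the difference was -1.28 in HIF1a+/- and -1.10 in HIF1aKI/+. With the mean of the endothelial markers as a covariate it was -1.20 (SE 0.18) in HIF1a+/- and -1.05 (SE 0.19) in HIF1aKI/+ tumours. Stab1 was not called in either comparison with either covariate, and the HIF1a+/- values refit the comparison that chose the genes.

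Over the 9 tumours with an altered Hif1a allele, without centring, Stab1 had as a description an r of 0.44 with Cd163, 0.42 with Msr1 and 0.34 with Mrc1. With Csf1r it was -0.17 and with C1qa -0.36. The rest lay between 0.00 and 0.11. All Cd163 values in these 9 tumours were at background.

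Several of the other 9 genes were correlated with one another, and Cd163 and Mrc1 with few of them. Over the 36 pairs among them the median r of genotype-centred levels was 0.35, and 28 were above 0, while the 9 pairs with Stab1 had a median of -0.15 with 3 above 0. The closest pairs were C1qa with C1qb (0.83), Mpeg1 with Ctsb (0.79), Mpeg1 with C1qb (0.73), Ctsb with C1qb (0.73) and Mrc1 with Cd14 (0.73). Csf1r was close to Mpeg1 (0.70), Ctsb (0.63) and C1qa (0.55), and Msr1 to C1qb (0.72), Cd14 (0.62) and Ctsb (0.62). Mrc1 stood apart from C1qa (-0.11), C1qb (0.01) and Mpeg1 (-0.08), and was nearer to Cd163 (0.45). Cd163 had a median r of -0.15 with the other 9 genes, as Stab1 had. The SD of Cd163 was 0.02 in HIF1a+/- and 0.08 in HIF1aKI/+ tumours, at background, and 2.97 in HIF1a+/+ tumours. Its centred correlations thus rest on the HIF1a+/+ tumours. All correlations between the 10 genes share the arrays and their normalization, and they describe 14 tumours.

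**Figure D4:**
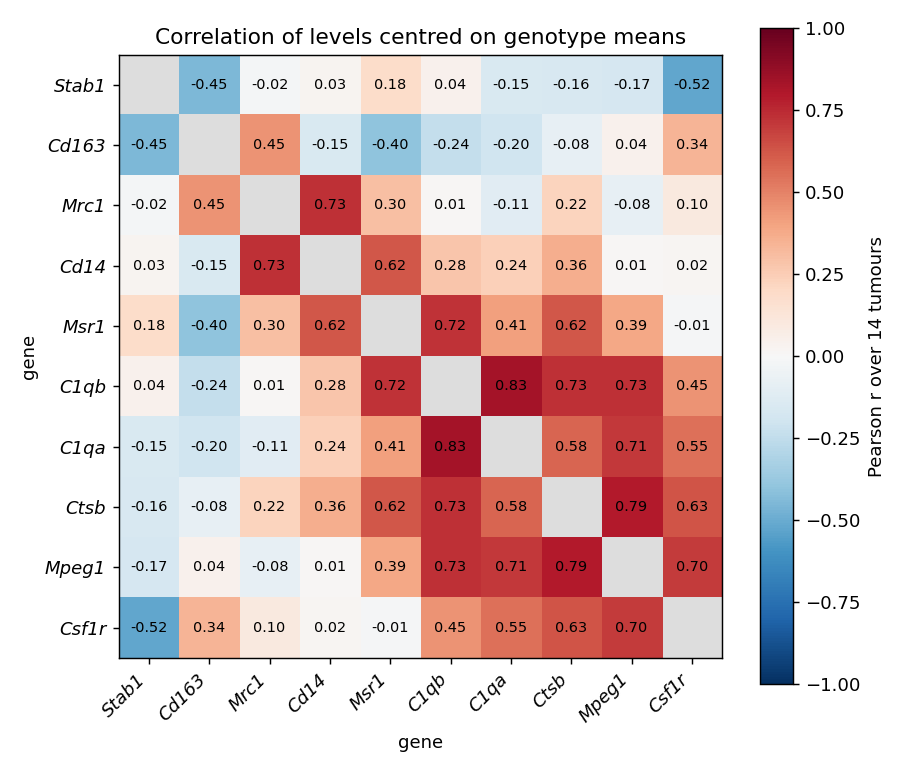
Pearson r between each pair of the 10 genes over 14 tumours, after centring each gene on its genotype means. Warm cells are positive and cool cells negative: C1qb, C1qa, Ctsb, Mpeg1 and Csf1r correlate at 0.45 to 0.83 with each other, Mrc1 and Cd14 at 0.73, and the Stab1 row lies between -0.52 and 0.18.

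The probe sets of a gene agreed in sign for Csf1r and Msr1 and not for C1qb and Ctsb. The r of centred Stab1 was -0.52, -0.59 and -0.47 with the 3 Csf1r probe sets and 0.04, -0.13 and 0.08 with the 3 of C1qb. It was -0.16, 0.31, -0.07 and -0.09 with the 4 of Ctsb. The Ctsb probe set with 0.31 averaged 9.04 in HIF1a+/-, 9.34 in HIF1aKI/+ and 9.69 in HIF1a+/+ tumours. With the 3 Msr1 probe sets r was 0.18, 0.24 and 0.41, and the last was at background in every tumour. Of the 3 Csf1r probe sets all were lower in HIF1a+/- than in HIF1a+/+ tumours, by -0.53, -0.81 and -0.78, and the third was below the background boundary in 4 tumours. Tested over all 18264 probe sets, limma called 0% in each of the 3 comparisons, Stab1 included.

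Among all genes, the 9 macrophage genes lay in the lower and middle part of the range of likeness to Stab1. The median r of centred Stab1 was 0.05 over 10253 genes, 0.03 over the 7237 with a mean above the background boundary and 0.12 over those below it. Of all genes, 2.7% had a lower r than Csf1r, 6.0% a lower r than Cd163 and 63.6% a lower r than Msr1, the highest of the 9. The genes above the boundary whose centred levels were most like Stab1 over the 14 tumours were Smarcb1 (r = 0.85), Tmed9 (0.83), Xpc (0.81), Cog6 (0.81), Fbxo42 (0.80), Agtrap (0.80), Lrrfip2 (0.80) and Capza1 (0.80). Smarcb1 encodes a core subunit of the SWI/SNF chromatin remodelling complex and Xpc a DNA damage sensor. None of the 8 is in the macrophage or endothelial lists. The 8 were picked as the highest of 7237 correlations over 14 tumours, and they were not tested. Their differences from HIF1a+/+ ran from -0.21 (Smarcb1) to 0.49 (Cog6) in HIF1a+/- and from -0.28 (Smarcb1) to 0.39 (Xpc) in HIF1aKI/+ tumours. The least like were Ints4 (-0.87), Pdgfra (-0.82), a receptor of fibroblasts, Zfp566 (-0.81) and Piga (-0.78).

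**Figure D5:**
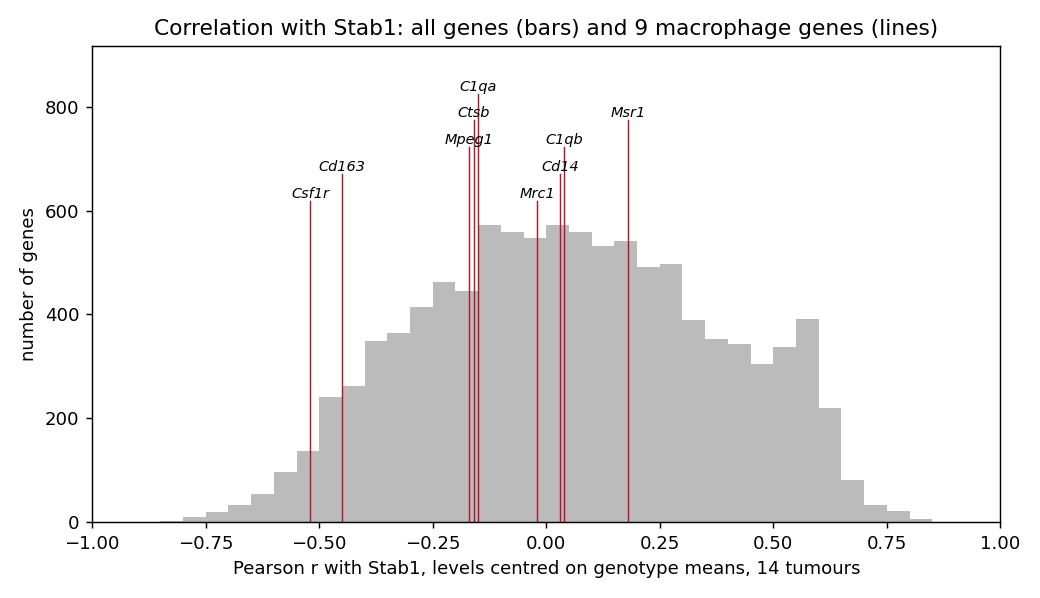
Number of genes (vertical) by Pearson r with Stab1 (horizontal), levels centred on genotype means over 14 tumours. Lines mark the 9 other macrophage genes, which run from -0.52 (Csf1r) to 0.18 (Msr1). Csf1r and Cd163 lie toward the lower tail, with 2.7% and 6.0% of all genes at a lower r.

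Other genes of the pathways around these receptors, from lists written out beside them, had 0 calls by limma in any of the 3 comparisons. A gene counted as lower in what follows has a difference below 0 that did not pass. Of the 26 other macrophage and monocyte markers 15 were lower in HIF1a+/- and 16 in HIF1aKI/+ than in HIF1a+/+ tumours, with median differences of -0.07 and -0.03. At an unadjusted p under 0.05 were 2 of them in HIF1a+/-, both lower, and 0 in HIF1aKI/+, where over all genes 4.30% were higher and 3.64% lower at that threshold in HIF1a+/-. Lyz2 differed by 0.11 in HIF1a+/- and 0.42 in HIF1aKI/+, and Tyrobp by 0.05 in HIF1a+/- and 0.11 in HIF1aKI/+. C1qc, the third chain of C1q, differed by -0.32 in HIF1a+/- and 0.14 in HIF1aKI/+ tumours. The median r of the 26 with centred Stab1 was -0.14, with 8 above 0. The mean of the 26 had a centred r of -0.35 with Stab1, which was not tested.

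Scavenger receptors and efferocytosis genes, which recognise and engulf dying cells, had 17 of 22 lower in HIF1a+/- (median -0.23) and 11 of 22 in HIF1aKI/+ (median 0.01). Cd68, the lysosomal glycoprotein macrosialin, differed by 0.12 in HIF1a+/- and 0.27 in HIF1aKI/+. Stab2, the sister receptor of Stab1 on sinusoidal endothelium, averaged 6.2 in HIF1a+/-, 5.87 in HIF1aKI/+ and 6.31 in HIF1a+/+ tumours, and its centred r with Stab1 was 0.09. Of the CSF1 receptor ligands and cytokines, Csf1 and Il34, both ligands of Csf1r, lay below the background boundary, and the chemokine gene Cxcl12 differed by -1.32 in HIF1a+/- (limma adjusted p = 0.54) and -1.0 in HIF1aKI/+ (limma adjusted p = 0.984). Cathepsin and lysosome genes had 11 of 21 lower in HIF1a+/- and 8 of 21 in HIF1aKI/+, with medians of -0.03 in HIF1a+/- and 0.03 in HIF1aKI/+. The classical complement genes had 10 of 15 lower in HIF1a+/- and 8 of 15 in HIF1aKI/+, and the TLR4 and CD14 pathway 9 of 13 in HIF1a+/- and 7 of 13 in HIF1aKI/+. Alternative activation genes had 12 of 16 lower in HIF1a+/- (median -0.37) and 9 of 16 in HIF1aKI/+ (median -0.31). Among those of highest mean, Hmox1, which degrades haem, differed by -1.01 (SE 0.70) in HIF1a+/- and -0.79 (SE 0.74) in HIF1aKI/+. Ccl17 went the other way, by 3.20 (SE 1.37) in HIF1a+/- and 2.53 (SE 1.46) in HIF1aKI/+. Tgm2 differed by -0.06 in HIF1a+/- and 0.02 in HIF1aKI/+, and Slc40a1 by -0.09 in HIF1a+/- and -0.44 in HIF1aKI/+. Within genotypes the list means correlated with Stab1 at -0.60 for scavenger receptors and efferocytosis, -0.59 for classical complement and -0.32 for alternative activation. They gave -0.23 for cathepsins and lysosome, -0.21 for the TLR4 and CD14 pathway and -0.11 for CSF1 receptor ligands and cytokines. These list means were not tested.

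Endothelial markers, the other possible source of Stab1, were mostly weak, with 8 of 19 above the background boundary and Cdh5, Kdr, Tie1, Eng and Emcn below it. Of the 19, 14 were lower in HIF1a+/- (median -0.37) and 10 in HIF1aKI/+ (median -0.18). The 4 of highest mean went both ways. Icam2 differed by 1.07 (SE 0.24) in HIF1a+/- and 0.76 (SE 0.26) in HIF1aKI/+, and Pecam1 by 0.81 in HIF1a+/- and 0.15 in HIF1aKI/+. Plvap differed by -0.96 (SE 0.39) in HIF1a+/- and -0.18 in HIF1aKI/+, and Egfl7 by -0.10 in HIF1a+/- and 0.19 in HIF1aKI/+. The median r of the 19 with centred Stab1 was 0.16, with 14 above 0. Over all genes it was 0.05, with 5678 of 10253 above 0. It was 0.12 over genes below the boundary, where most of the 19 lay, and 0.03 over genes above it. The mean of the list ran from 3.85 to 4.92 in HIF1a+/-, from 4.07 to 4.69 in HIF1aKI/+ and from 4.11 to 5.35 in HIF1a+/+ tumours, and these ranges overlap. The centred r of this mean with Stab1 was 0.32, which was not tested. Of the 8 measured sinusoidal and lymphatic endothelial markers 4 were above the boundary, and 5 were lower in HIF1a+/- and 6 in HIF1aKI/+ tumours (medians -0.09 and -0.05).

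Markers of other cell types had 0 calls as well, and the ranges of their list means overlapped between HIF1a+/+ and the other genotypes. The mean of 16 fibroblast and matrix markers ran from 8.49 to 9.28 in HIF1a+/-, from 8.73 to 9.84 in HIF1aKI/+ and from 9.01 to 10.56 in HIF1a+/+ tumours, with Lum below the boundary. Differences were below 0 in 14 of 16 in HIF1a+/- (median -0.95) and in 11 of 16 in HIF1aKI/+ (median -0.60). At an unadjusted p under 0.05, 7 were lower in HIF1a+/- and 3 in HIF1aKI/+. Over all genes 3.64% were lower at that threshold in HIF1a+/- and 1.63% in HIF1aKI/+. Thy1 stands in that list and in the T cell list. The mean of 9 thymic epithelial markers ran from 5.13 to 7.11 in HIF1a+/-, from 6.12 to 7.26 in HIF1aKI/+ and from 3.07 to 6.68 in HIF1a+/+ tumours, with Krt14, Aire, Cldn3 and Cldn4 below the boundary. The median difference of these 9 was 1.39 in HIF1a+/- and 1.84 in HIF1aKI/+. At an unadjusted p under 0.05, 5 were higher in HIF1a+/- and 6 in HIF1aKI/+, where 4.30% and 2.72% of all genes were higher. The mean of 5 adipocyte markers ran from 4.61 to 5.74 in HIF1a+/-, from 4.77 to 6.26 in HIF1aKI/+ and from 4.64 to 9.34 in HIF1a+/+ tumours, with Adipoq and Retn below the boundary. All 5 differences were below 0 in HIF1a+/- (median -1.72) and in HIF1aKI/+ (median -1.61). At an unadjusted p under 0.05 were 2 in HIF1a+/- and 1 in HIF1aKI/+, where 3.64% and 1.63% of all genes were lower. Within genotypes the list means correlated with Stab1 at -0.08 for the fibroblast, -0.06 for the thymic epithelial and -0.41 for the adipocyte markers. They gave -0.51 for the B cell, -0.29 for the dendritic cell and MHC class II and -0.08 for the neutrophil markers. The T lymphoma cell list gave 0.22 and the erythroid list, at background, 0.37. Dendritic cell and MHC class II markers had 2 of 10 lower in HIF1a+/- and 1 of 10 in HIF1aKI/+, with medians of 0.46 in HIF1a+/- and 0.60 in HIF1aKI/+ tumours. Neutrophil markers had 7 of 9 and erythroid markers 3 of 3 below the boundary. Of 7 B cell markers 3 were above it. Housekeeping and RNA quality genes had medians of -0.02 in HIF1a+/- and -0.01 in HIF1aKI/+. The part of any of these cells in the Stab1 result was not tested.

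The measured genes beside Stab1 on chromosome 14, named after their values were seen, were near or above their HIF1a+/+ means. Nt5dc2, next on one side, averaged 11.90 in HIF1a+/-, 12.19 in HIF1aKI/+ and 11.20 in HIF1a+/+ tumours, the opposite direction. Nisch, next on the other side, averaged 12.73 in HIF1a+/-, 12.70 in HIF1aKI/+ and 12.48 in HIF1a+/+ tumours. Differences from HIF1a+/+ over the 3 measured genes on each side ran from -0.12 to 0.70 in HIF1a+/- and from 0.00 to 0.99 in HIF1aKI/+ tumours.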

How the data were processed

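Total RNA (100 ng per the labels) of 14 tumours was hybridised to 1 array each. The authors deposited 1 log2 value per probe set and tumour. GCRMA and Partek are named per the submitters' processing notes, and further steps are not given in the sources used here. The log2 scale was read from the range of the values, and scanner files were not used here. Of 18264 probe sets 16602 name 1 gene, 603 several and 1059 none. The probe set of highest mean stood for each of 10254 genes. The background boundary is the lowest point of the density of probe set means between its modes. limma 3.58.1 (R 4.3.3; lmFit and eBayes, two-sided) estimated a mean for each genotype from the 14 arrays together, with Benjamini-Hochberg adjustment over all genes and a threshold of 0.05. Errors are SE of the fit or SD between tumours, and the number of arrays limits precision.

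Correlations with Stab1 used genotype-centred values and 100000 permutations within genotype (two-sided, adjusted over 9 pairs, Python 3.11.15, numpy 2.4.6). Intervals are approximate, from Fisher's transformation. Both procedures were tested on simulated data. The genes, lists and tests were chosen with earlier results of these data known. Beyond the members, the genes named are Hif1a, the 4 of highest mean in a list, the genes most and least like Stab1, and called genes; list members below the boundary and the neighbours of Stab1 were named after their values were seen. Probe sets matched to current symbols by Entrez ID numbered 16583. Tumours that share a number across genotypes had a mean correlation of residuals of -0.006 over 13 pairs, beside 0.002 over 52 pairs of unlike numbers. Over all genes the numbers thus showed no pairing, and a pairing that affects only some genes was not tested. No labels say whether arrays were run together. Alternatives tried were other ways to take probe sets, a filter at the background boundary, array centring, quantile normalization, moderation, array weights, 2 groups only, the replicate block, covariates and leaving out each tumour.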

Additional observations from a re-analysis of the deposited data

Results flagged for a closer look

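In 30 groups (10 genes by 3 genotypes) 3 single tumours stood apart from the rest of their group by Dixon's test at the 95% level, which chance gives in about 1 group in 20. HIF1aKI/+ tumour 4 had Mrc1 at 7.48, where the other 3 tumours of its genotype were at 9.42 to 9.59. The same tumour had Msr1 at 5.80, where the others were at 6.81 to 7.01. HIF1a+/+ tumour 2 had Csf1r at 13.89, where the other 4 were at 13.18 to 13.34. Stab1 had no such tumour in any genotype.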

How the results depend on the processing

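The Stab1 difference of HIF1a+/- from HIF1a+/+ tumours ran from -1.38 to -1.20 over the fits without 1 tumour each, and that of HIF1aKI/+ from -1.21 to -1.0. Under the other settings, fits without a tumour aside, there were 270 member differences. Of these, 260 kept their direction and side of the threshold or moved by less than the spread between tumours. For HIF1a+/- against HIF1a+/+ the count went by the size of the move, by sign for Stab1 only, and not by calls. There C1qa turned from -0.12 to 0.56 with array weights, and Stab1 was called in 2 of 10 settings. Ctsb in HIF1a+/- moved to -0.34 with the mean of its probe sets. In HIF1aKI/+ against HIF1a+/+ the sign turned for C1qb with arrays centred on their medians (-0.03), for Csf1r with the replicate block (0.05) and for Ctsb with quantile normalization (0.03), array weights (0.07), the replicate block (0.04) and the endothelial covariate (0.01). In HIF1a+/- against HIF1aKI/+ it turned for Cd163 with the replicate block (-0.45) and the endothelial covariate (-0.11) and for Msr1 with the endothelial covariate (0.13). None of these was called. Without 1 tumour each, the ranges crossed 0 in HIF1aKI/+ against HIF1a+/+ for C1qb (-0.05 to 0.11), Csf1r (-0.15 to 0.04), Ctsb (-0.06 to 0.05) and Mpeg1 (-0.04 to 0.22). In HIF1a+/- against HIF1aKI/+ they did so for Cd14 (-0.94 to 0.23), Cd163 (-0.03 to 0.03) and Msr1 (-0.36 to 0.06).

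The count of called genes in HIF1a+/- against HIF1a+/+, 2 in the reported fit, was 1 with trend and robust moderation. It was 0 with all probe sets tested singly, the filter at the background boundary, centred arrays, quantile normalization, only the 2 groups compared, the replicate block, and either covariate. Without 1 tumour it was 1 without HIF1a+/- tumour 1 and 0 without any other. In HIF1aKI/+ against HIF1a+/+, 0 in the reported fit, it was 1 without HIF1aKI/+ tumour 3 and 2 without HIF1aKI/+ tumour 5, and in HIF1a+/- against HIF1aKI/+ 1 without HIF1aKI/+ tumour 3 or HIF1a+/+ tumour 5. By the labels the tumours share only a number, and the replicate block changed no call of a member but that of Stab1 in HIF1a+/-. The cause of these changes was not tested.

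No correlation with Stab1 passed under any setting. Without centring, values that contain the genotype difference, 8 of 9 r were above 0 with a median of 0.29: 0.63 for Cd14, 0.51 for Mrc1, 0.48 for Cd163, 0.41 for Msr1, 0.29 for Csf1r, 0.25 for C1qb, 0.20 for Ctsb, 0.19 for Mpeg1 and -0.10 for C1qa. The list means then gave 0.57 for the fibroblast, -0.60 for the thymic epithelial and 0.42 for the adipocyte markers. Over only the 9 HIF1a+/- and HIF1aKI/+ tumours, centred, r with Stab1 changed sign for Cd163 (0.48), Mrc1 (0.27) and C1qb (-0.25). All Cd163 values in these 9 tumours were at background. For the other genes r was -0.56 for C1qa, -0.53 for Csf1r, -0.39 for Mpeg1, -0.18 for Ctsb, 0.01 for Cd14 and 0.42 for Msr1. With the replicate block it was 0.16 for Csf1r, -0.14 for Cd14, 0.36 for Mpeg1, 0.48 for C1qa, -0.21 for Msr1 and 0.09 for Ctsb. With the mean of all probe sets it was -0.06 for C1qb and 0.01 for Ctsb, and with arrays centred on their medians -0.01 for Cd14. Without 1 tumour each, r ran from -0.63 to -0.17 for Cd163, -0.16 to 0.19 for Mrc1, -0.68 to -0.36 for Csf1r, -0.15 to 0.13 for Cd14, -0.52 to 0.10 for Mpeg1, -0.48 to 0.12 for C1qa, -0.25 to 0.26 for C1qb, -0.20 to 0.43 for Msr1 and -0.39 to 0.08 for Ctsb. The difference of C1qa in HIF1a+/- from HIF1a+/+ ran from -0.66 to 0.39.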
